A study of Mus musculus with 12 samples.

Results

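The mitochondrial genome of the mouse carries its own protein-coding genes, and 10 of them were analysed here in the left ventricle of the heart. They are the 10 of 21669 transcript names in the count tables that start with mt-. Not every protein-coding gene of that genome has a row, so mitochondrial shares and totals below refer to these 10 rows only. Tissue came from adult hearts of wild-type (WT) mice and of mice lacking Rpl3l (Rpl3l-/-, here KO), a large-subunit ribosomal protein gene of heart and skeletal muscle. The labels give no age beyond adult, no strain and no sex, and the design speaks of biological triplicates. Where replicates were not separate animals, p-values measure only the spread between these libraries. Each genotype had 3 RNA libraries, made from polyadenylated RNA, and 3 libraries of ribosome-protected fragments (RPF, or footprints), the short pieces of mRNA left by RNase I digestion, which makes 12 libraries in all. A footprint library and the RNA library of equal genotype and number were read together as 1 heart, which the labels do not state.

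Mitochondrial DNA is transcribed into long precursors from both strands, and excision of the tRNAs that lie between genes releases most of the mRNAs. Most of these mRNAs are polyadenylated inside the organelle. They are translated by the mitochondrial ribosome, whose proteins are all made in the cytosol and imported. Because the RNA libraries hold polyadenylated RNA, the RNA counts of a member may depend on its tail, which was not tested. All 10 products are membrane subunits of the oxidative phosphorylation system on which cardiac muscle depends for ATP. The mt-Nd genes code for subunits of complex I (NADH dehydrogenase), mt-Co1 and mt-Co2 for the catalytic subunits of complex IV (cytochrome c oxidase), and mt-Atp6 and mt-Atp8 for the membrane part of complex V (ATP synthase). Cycloheximide, present in the lysis buffer, arrests cytosolic ribosomes and does not act on mitochondrial ones.

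All library totals were raw counts, between 3827862 and 7474602 in RPF and between 6635242 and 8459004 in RNA. The targeted gene followed its label in every library. Rpl3l had 2987, 2726 and 3329 RNA counts in WT libraries 1, 2 and 3 against 276, 310 and 442 in KO, and 937, 985 and 1108 footprints in WT against 65, 30 and 61 in KO. The fitted log2 fold change (KO relative to WT) was -3.10 (SE 0.18, edgeR adjusted p = 8.186e-05) in RNA and -4.76 (SE 0.28, edgeR adjusted p = 2.454e-07) in RPF. Markers of cardiomyocytes and of 7 other cell types were detected in all 12 libraries.

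The 10 coding regions, in GENCODE M21 (GRCm38), run from 204 bases in mt-Atp8 to 1824 bases in mt-Nd5, and none has an intron. Of these, 9 read from the plus strand and mt-Nd6 alone reads from the minus strand. The sequence of mt-Nd6 holds 28.1% G, whereas G makes up between 5.88% and 16.1% of the other 9. The genes also differ in how they begin and end. ATG opens 6 of them, whereas mt-Nd1 opens with GTG, mt-Nd2 with ATA, mt-Nd3 with ATT and mt-Nd5 with ATC, and 8 end in TAA and 2, mt-Nd1 and mt-Nd2, in TAG. The first 30 coding bases are shown for the 3 genes with the highest mean footprints per RNA and the 3 with the lowest, with the annotated start codon in capitals. The first 3 lines are the high group: mt-Nd4l at chrM:9877-9906, mt-Atp8 at chrM:7766-7795 and mt-Nd5 at chrM:11742-11771, all plus strand. The last 3 are the low group: mt-Nd1 at chrM:2751-2780 on the plus strand, mt-Nd6 at chrM:14041-14070 on the minus strand and mt-Atp6 at chrM:7927-7956 on the plus strand.
mt-Nd4l: ATGccatctaccttcttcaacctcaccata
mt-Atp8: ATGccacaactagatacatcaacatgattt
mt-Nd5: ATCaatattttcacaacctcaatcttatta
mt-Nd1: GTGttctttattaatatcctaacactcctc
mt-Nd6: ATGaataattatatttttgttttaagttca
mt-Atp6: ATGaacgaaaatctatttgcctcattcatt
Transcripts do not map to these genes one to one: mt-Atp8 and mt-Atp6, for example, are known to be carried on a single mature RNA.

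There are 2 places where members share bases, and only the first is long enough to hold windows of 28 bases found in both genes. The last 43 bases of mt-Atp8 (chrM:7927-7969) are also the first 43 of mt-Atp6, read in another frame, and the window below (chrM:7924-7953, plus strand) shows the mt-Atp6 start codon in capitals inside the end of mt-Atp8. Of the 177 windows of 28 bases in mt-Atp8, 16 also occur in mt-Atp6, so a footprint there fits both genes. The last 14 bases of mt-Nd5 and mt-Nd6 face each other on opposite strands (chrM:13552-13565), in capitals in the other 2 lines, which run over chrM:13536-13565 on the plus strand and chrM:13552-13581 on the minus strand.
Within mt-Atp8: aaaATGaacgaaaatctatttgcctcattc
End of mt-Nd5: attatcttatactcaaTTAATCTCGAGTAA
End of mt-Nd6: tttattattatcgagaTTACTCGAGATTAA
The RNA kit keeps strand, but whether the counting used it is not stated, so reads of mt-Nd6 and reads antisense to it cannot be told apart. In addition, mt-Nd4l shares 7 bases with a plus-strand neighbour that has no row here, fewer than a window of 28 bases holds. The handling of reads that match 2 genes is not stated, so the level of mt-Atp8 is uncertain over its 16 shared windows. The region counted is not stated either, so the levels of mt-Nd4l and mt-Atp8 remain uncertain.

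Together the 10 mRNAs filled between 49.8% and 58.2% of each RNA library and a small part of each footprint library. Their summed share of RNA counts was 56.9%, 58.2% and 53.4% in WT libraries 1, 2 and 3 and 57.6%, 56.9% and 49.8% in KO. Their share of footprints was 3.16%, 2.28% and 4.08% in WT and 5.22%, 3.0% and 2.54% in KO. The lowest RNA share and the highest footprint share were both in KO libraries, and the genotypes overlapped in each assay. RNA shares averaged 56.2% ± 2.5 for WT and 54.8% ± 4.3 for KO (SD, n = 3 each; exact two-sided permutation p = 0.7), and footprint shares 3.17% ± 0.90 and 3.59% ± 1.4 (SD, n = 3 each; exact two-sided permutation p = 0.7). With 3 libraries against 3 this test cannot go below 0.1. Counting error is small beside this spread: in WT RPF library 2, which has the fewest counts, the Wilson 95% interval was 2.27% to 2.30%. In bulk tissue, fewer mitochondria-rich cells and less mitochondrial RNA per cell cannot be told apart.

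The complex IV mRNAs were among the 3 largest members in RNA and the 2 largest per length in footprints. mt-Co1, which holds the copper and heme sites where oxygen is reduced, took 13.4%, 14.4% and 13.3% of WT RNA counts and 15.5%, 13.4% and 12.4% of KO RNA counts. It took 1.34%, 1.01% and 1.65% of WT footprints and 1.98%, 1.16% and 1.06% of KO footprints. The groups overlapped in both assays, and KO library 1 was the highest in each. mt-Co2, whose copper centre receives electrons from cytochrome c, took 15.3%, 15.5% and 13.6% of WT RNA counts and 13.4%, 15.0% and 13.8% of KO RNA counts. Its footprints made up 0.410%, 0.277% and 0.584% in WT and 0.762%, 0.422% and 0.350% in KO. So mt-Co2 was close to mt-Co1 in RNA counts but held fewer footprints than mt-Co1 in all 6 footprint libraries.

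The rows of the complex V genes lie far apart in RNA counts, although these genes are read from one RNA and overlap. How reads were divided between the rows is not stated, so the difference cannot be read as one between separate mRNAs. mt-Atp6, a membrane subunit of the proton channel, took 13.5%, 14.0% and 12.8% of WT RNA counts and 12.1%, 13.3% and 10.2% of KO RNA counts. In footprints it had 0.233%, 0.188% and 0.362% in WT and 0.379%, 0.205% and 0.169% in KO. mt-Atp8, a small subunit next to it, took 0.0843%, 0.0738% and 0.101% of WT RNA counts and 0.107%, 0.0810% and 0.146% of KO RNA counts. Footprints of mt-Atp8 made up 0.0897%, 0.0491% and 0.137% in WT and 0.147%, 0.127% and 0.0920% in KO, which is the same order of size as its RNA share. All 4 of these sets of libraries overlapped between genotypes.

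The complex I mRNAs spread from the lowest RNA level per length of all members to the middle of the range. mt-Nd1, a subunit at the quinone site, took 6.07%, 6.18% and 5.74% of WT RNA counts and 6.91%, 6.49% and 5.63% of KO RNA counts. Its footprints made up 0.176%, 0.114% and 0.219% in WT and 0.309%, 0.179% and 0.149% in KO. mt-Nd2, one of the proton-pumping subunits of the membrane arm, took 1.85%, 1.61% and 1.69% of WT RNA counts and 2.5%, 1.90% and 1.90% of KO RNA counts, and no KO value fell within the WT range. In footprints it stood at 0.239%, 0.149% and 0.246% in WT and 0.429%, 0.252% and 0.187% in KO, with overlap. mt-Nd5, the most distal proton-pumping subunit, took 0.801%, 0.767% and 0.828% of WT RNA counts and 1.07%, 0.733% and 0.854% of KO RNA counts. Its footprints made up 0.40%, 0.300% and 0.541% in WT and 0.629%, 0.425% and 0.346% in KO, so that this mRNA, small in RNA, was among the larger members in footprints.

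The remaining complex I members, all subunits of the membrane arm, are short. mt-Nd3 took 3.20%, 3.02% and 2.52% of WT RNA counts and 2.77%, 3.09% and 1.96% of KO RNA counts. Its footprints made up 0.0896%, 0.0562% and 0.112% in WT and 0.204%, 0.0792% and 0.0664% in KO. mt-Nd4l was the smallest member in RNA, with 0.0612%, 0.0542% and 0.0473% in WT and 0.0787%, 0.0421% and 0.0537% in KO. Its footprints exceeded its RNA share in every heart, at 0.120%, 0.0913% and 0.150% in WT and 0.276%, 0.0975% and 0.0860% in KO. mt-Nd6, the one minus-strand member, took 2.66%, 2.68% and 2.84% of WT RNA counts and 3.07%, 2.89% and 2.87% of KO RNA counts, again without overlap. In footprints it had 0.0599%, 0.0420% and 0.0769% in WT and 0.112%, 0.0568% and 0.0431% in KO, with overlap. By share of library counts, mt-Nd2 and mt-Nd6 were thus 2 of 10 members whose RNA groups did not overlap, against 5.85% of all genes tested. After scaling of the libraries (TMM) no member was free of overlap in RNA (background 7.33%) or in RPF (background 12%).

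Per length, the order of the mRNAs differed between the assays. In RNA, mt-Co2 led with 211140.3 ± 13639.6 CPM per kb (SD, n = 6; CPM is the count scaled to the raw library total, and kb is coding length), followed by mt-Atp6, mt-Co1, mt-Nd3, mt-Nd1, mt-Nd6, mt-Nd2, mt-Atp8, mt-Nd5 and mt-Nd4l, the last with 1893 ± 431 (SD, n = 6). Several neighbours in that order did not differ beyond their spread: mt-Co1 lay above mt-Nd3 in 4 of 6 libraries, mt-Nd3 above mt-Nd1 in 5 of 6, and mt-Atp8 above mt-Nd5 in 2 of 6. The ranges of the 6 libraries also overlapped between mt-Co2 and mt-Atp6 and between mt-Nd1 and mt-Nd6, although the first of each pair was higher in 6 of 6 libraries. For mt-Nd6 this order holds only as far as its RNA counts exclude antisense reads, which is not stated. By contrast, the ranges were separate at 4 steps: between mt-Atp6 and mt-Co1, between mt-Nd6 and mt-Nd2, between mt-Nd2 and mt-Atp8, and between mt-Nd5 and mt-Nd4l.

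In footprints the order per length was mt-Co1, mt-Co2, mt-Atp8, mt-Nd4l, mt-Atp6, mt-Nd3, mt-Nd5, mt-Nd2, mt-Nd1 and mt-Nd6. mt-Co1 had 8846 ± 2452 and mt-Nd6 1253 ± 503 CPM per kb (SD, n = 6). The ranges of all neighbours overlapped, so positions are best read within libraries. There, mt-Co1 held rank 1, mt-Nd1 rank 9 and mt-Nd6 rank 10 in 6 of 6, whereas mt-Atp8 took any rank from 2 to 5, and mt-Nd5 lay above mt-Nd2 in 3 of 6. The mean level per length spanned a 112-fold range over the 10 genes in RNA and a 7.06-fold range in footprints. Without the 2 short genes mt-Atp8 and mt-Nd4l, the ranges were 45.8-fold and 7.06-fold.

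**Figure D1:**
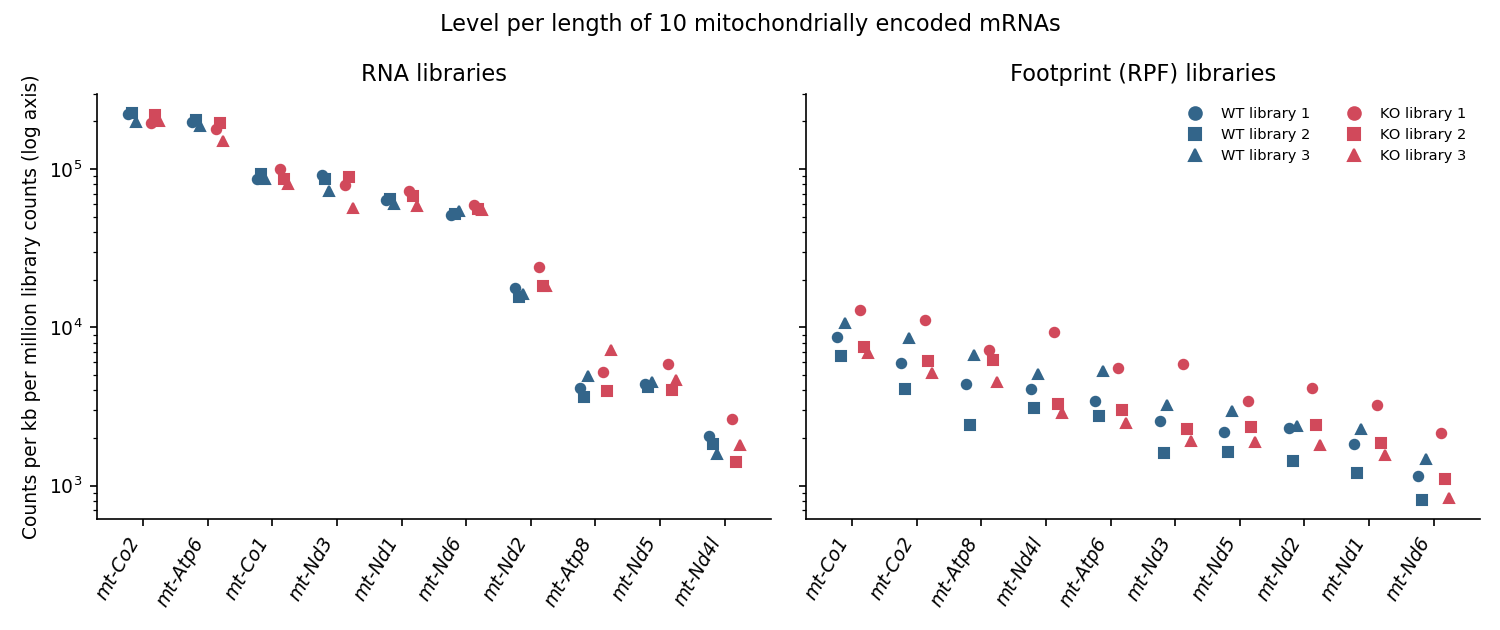
Level of each mRNA in RNA libraries (left) and footprint libraries (right), as CPM per kb (counts scaled to the library total, per coding length) on a log axis, with 1 point per library, blue for WT and red for KO, and symbols for library number. Genes stand in the order of their mean in each assay; RNA levels run from 211140.3 for mt-Co2 to 1893 for mt-Nd4l and footprint levels from 8846 for mt-Co1 to 1253 for mt-Nd6.

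Footprints per RNA, the ratio of a gene's share of footprints to its share of RNA in the same heart, set the members far apart. On the log2 scale, mt-Nd4l had 0.98, 0.75 and 1.66 in WT hearts 1, 2 and 3 and 1.81, 1.21 and 0.68 in KO. mt-Atp8 had 0.090, -0.59 and 0.44 in WT and 0.46, 0.65 and -0.67 in KO. mt-Nd5 had -1.0, -1.36 and -0.61 in WT and -0.76, -0.79 and -1.30 in KO. These 3 held ranks 1, 2 and 3 in 6 of 6 hearts. The first 2 rest on low RNA counts in rows that overlap a neighbour on the same strand, so neither may stand for a separate mRNA. The part of the counting in these ratios was not tested. Next came mt-Nd2, with a mean of -3.0 ± 0.34, and mt-Co1, with -3.37 ± 0.34 (SD, n = 6 hearts each), which held ranks 4 and 5 in 6 of 6 hearts.

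The other 5 members were lower still and closer together. Their means were -4.89 ± 0.69 for mt-Nd3, -5.03 ± 0.59 for mt-Co2, -5.08 ± 0.44 for mt-Nd1, -5.53 ± 0.49 for mt-Nd6 and -5.69 ± 0.50 for mt-Atp6 (SD, n = 6 hearts each). mt-Nd3, mt-Co2 and mt-Nd1 exchanged ranks 6 to 8 between hearts, and mt-Nd6 and mt-Atp6 exchanged ranks 9 and 10. The place of mt-Nd6 depends on strand use in the RNA counting, which is not stated. mt-Atp6 had -5.85, -6.22 and -5.15 in WT hearts 1, 2 and 3 and -5.00, -6.01 and -5.92 in KO. Pooled over the 6 libraries of each assay, which needs no pairing of libraries, the values ran from 1.28 for mt-Nd4l to -5.63 for mt-Atp6. The mean of the log2 values by heart, which does use the pairing, gave other figures in linear terms. By that mean the footprint share was 227% of the RNA share for mt-Nd4l and 1.93% for mt-Atp6. Whether RNA was counted over coding regions alone is not stated, which could shift such ratios for nuclear genes with long UTRs.

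Nuclear genes lay higher. Over 8034 nuclear genes tested in both assays, the pooled log2 ratio had a median of 1.71, quartiles of 0.46 and 2.99, and a first percentile of -2.96. All 10 mitochondrial mRNAs lay below that median, 9 below the lower quartile and 6 below the first percentile. By single hearts, 9 or 10 of the 10 lay below the heart's own nuclear median. mt-Nd4l was the member above it, in WT heart 3 and KO heart 1. Since the 10 mRNAs fill so much of the RNA libraries, shares of nuclear genes are lowered in RNA more than in footprints. Compared with scaling to nuclear counts, this raises the ratios of all genes of a heart, members included, by the same amount. The distance between members and nuclear genes in a heart is therefore the same on either scale. The values that follow are on the nuclear scale and do not compare with the median of 1.71. Taken relative to nuclear counts only, in both assays, the summed ratio of the members was -5.34, -5.90 and -4.75 in WT hearts and -4.62, -5.42 and -5.25 in KO, a mean of 2.70% in linear terms.

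**Figure D2:**
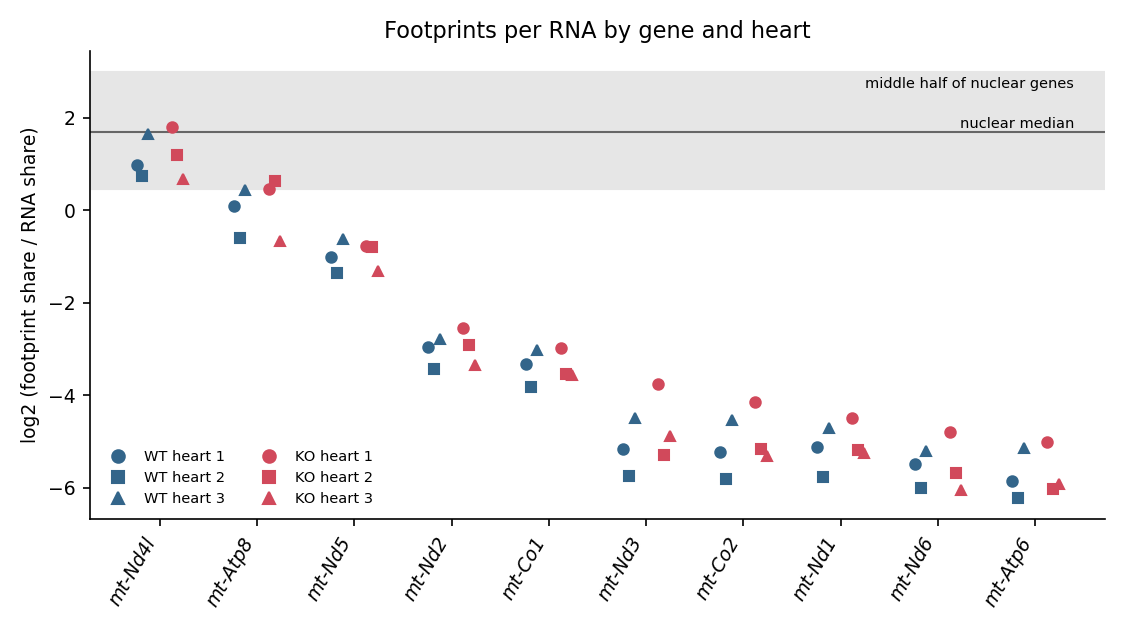
Footprints per RNA of each mRNA, as log2 of footprint share over RNA share, with 1 point per heart (blue WT, red KO, symbols for heart number). The line is the median of 8034 nuclear genes (1.71) and the grey band runs from their lower to their upper quartile (0.46 to 2.99); mt-Nd4l lies inside the band and 7 genes lie below -2 in every heart.

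Neighbouring genes and partners within a complex, in 5 chosen pairs, show the same contrast in counts per base. These ratios restate the footprints per RNA above and are not separate support. mt-Atp8 stood at 2.71% ± 1.1 of mt-Atp6 in RNA, with single libraries between 1.76% and 4.78%, and at 143% ± 43 in footprints, between 87.4% and 206% (SD, n = 6). mt-Nd4l, which follows mt-Nd3 on the genome, stood at 2.45% ± 0.68 of it in RNA and at 160% ± 16 in footprints (SD, n = 6). Since mt-Nd4l overlaps a gene on the same strand that has no row here, its RNA row may not stand for a separate mRNA. mt-Nd1 stood at 356% ± 41 of mt-Nd2 in RNA and at 83.6% ± 7.4 in footprints, below 100% in all 6 libraries (SD, n = 6). mt-Co1 stood at 42.2% ± 4.6 of mt-Co2 in RNA and at 134% ± 17 in footprints (SD, n = 6). mt-Nd6, on the minus strand, stood at 1196% ± 120 of mt-Nd5 in RNA and at 50.9% ± 6.4 in footprints (SD, n = 6). The RNA counts of mt-Nd6 may hold reads antisense to it, since strand use in the counting is not stated. In all 5 pairs the lowest and highest RNA values were clear of the footprint values.

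Against nuclear partners of the same complexes, the excess of mitochondrial RNA was far larger than that of mitochondrial footprints. Levels here are per kb of coding sequence in footprints and per kb of transcript in RNA. Whether RNA was counted over whole transcripts is not stated, and the RNA folds depend on it. The median complex I member had 66.9 times the RNA level of the median of 36 nuclear complex I genes (61.0 to 77.1 over the 6 libraries), and a footprint level of 238% of theirs (155% to 376%). For complex IV the RNA fold was 92.3 (79.4 to 108) and the footprint level 234% (159% to 389%) against 14 nuclear genes. For complex V the values were 125 (84.5 to 168) and 159% (97.1% to 230%) against 17 nuclear genes. Complexes IV and V have 2 members each, so their medians are midpoints. In complex V the RNA midpoint lies between 185691.7 CPM per kb for mt-Atp6 and 4846 for mt-Atp8, and describes neither gene. The nuclear medians varied little between footprint libraries, with 1004 ± 31 CPM per kb for complex I against 2396 ± 789 for its mitochondrial members (SD, n = 6).

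In footprints the members moved together from library to library. Their log2 CPM, here on TMM-scaled library sizes, had within-group SDs between 0.42 and 0.71 in footprints. The median of 711 nuclear genes averaging 1000 or more footprints was 0.14, and each member was more variable than between 97.8% and 99.2% of them. In RNA the SDs ran from 0.19 to 0.49, against a median of 0.24 over 474 such nuclear genes. A shift shared by all 10 members accounted for 91.5% of their within-group variation in footprints, on TMM-scaled sizes and on raw library totals alike. In RNA it depended on the scaling, at 67.4% with TMM and 20.2% on raw totals, where the SDs ran from 0.052 to 0.35.

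In footprints, KO library 1 lay above its group mean for 10 of 10 members, by 0.69 on average, and KO library 3 below for 10 of 10, by -0.51. WT library 3 lay above for 10 of 10 (0.41) and WT library 2 below for 10 of 10 (-0.48). On raw totals the same 4 counts were 10 of 10. In TMM-scaled RNA, WT library 3 lay below for 10 of 10 (-0.29), KO library 3 below for 9 of 10 (-0.31), with mt-Atp8 the exception, and WT library 1 above for 10 of 10 (0.24). On raw totals these RNA counts were 7 of 10 (-0.04), 9 of 10 (-0.08) and 7 of 10 (0.04). Library 1 of KO was also the deepest footprint library, and WT library 2 the shallowest. KO library 2 had 6910017 footprint counts and a mitochondrial share of 3.0%. WT library 3 and KO library 3 had 4649321 and 4704689 footprint counts, with shares of 4.08% and 2.54%. The part of depth in this spread was not tested. The main component of nuclear genes in RPF (42.1% of variance) set WT library 1 apart, whose mitochondrial share of 3.16% lay inside the range of the others. In RNA the main component (44.5%) placed WT library 3, KO library 1 and KO library 3 opposite the other 3, and mitochondrial shares of these were 53.4%, 57.6% and 49.8%.

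**Figure D3:**
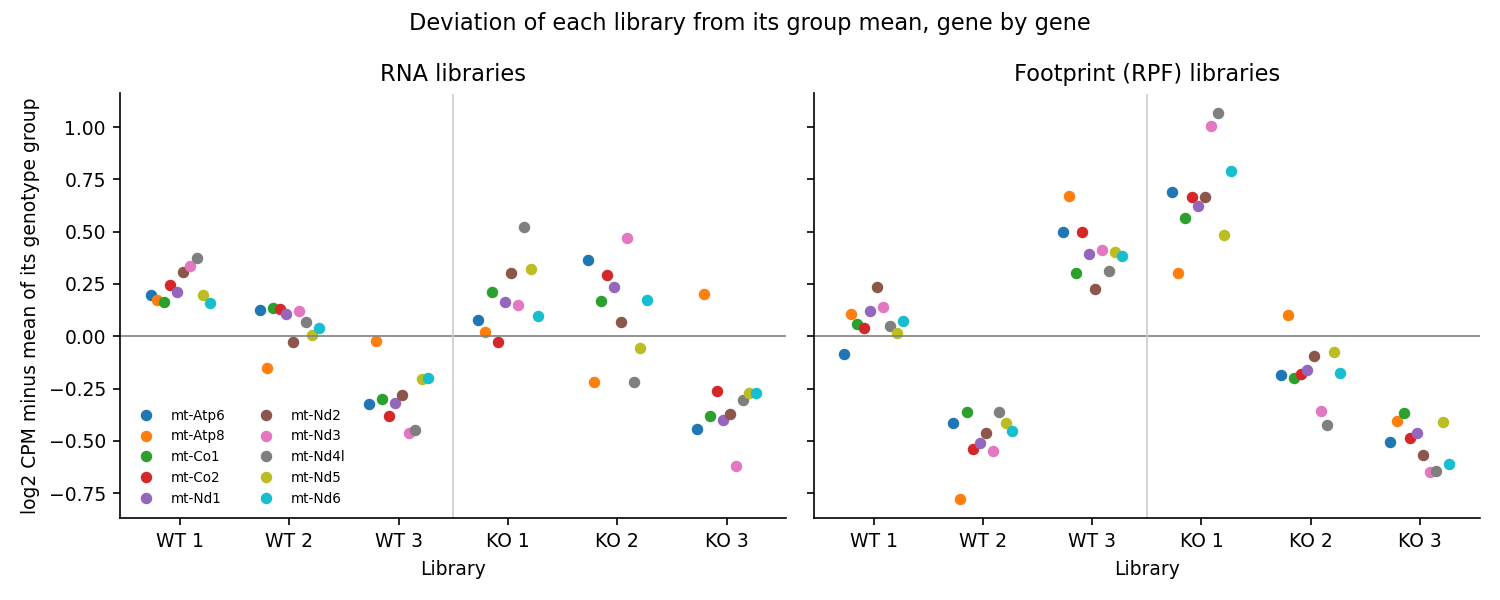
Deviation of each library from the mean of its genotype group, in log2 CPM, for the 10 mRNAs (1 coloured point per gene) in RNA (left) and footprint libraries (right). Points of a footprint library stay together, with all 10 genes above 0 in KO library 1 and all 10 below 0 in KO library 3; the RNA panel depends on the TMM scaling.

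The nuclear genes whose levels followed the members most closely differed between assays. In RNA on TMM-scaled sizes, among 2860 genes averaging 100 or more counts, they were Dnpep (Pearson r = 0.99), Cct8 (0.97) and Nup85 (0.97), over 6 libraries. In footprints, among 5779 genes, they were Tsc22d1 (0.99), Micos10 (0.98) and Acad9 (0.97). Dnpep codes for a peptidase, Cct8 for a chaperonin subunit and Nup85 for a nuclear pore protein. Tsc22d1 codes for a transcription regulator, Micos10 for a subunit of the complex that shapes mitochondrial cristae, and Acad9 for a complex I assembly factor. Over the 6 libraries the members' mean spanned 1.39 log2 units in footprints, against 0.77 for Tsc22d1, 0.75 for Micos10 and 0.41 for Acad9. With 6 points that share libraries and their scaling, these are descriptions: 43 genes in RNA and 31 in footprints passed an r of 0.9.

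Between genotypes, no mitochondrial mRNA passed the test in RNA, in footprints or in footprints relative to RNA. By edgeR's quasi-likelihood test 0 of 10 members passed an adjusted p of 0.05 in RNA (background 0.0119% of 8379 genes), 0 of 10 in RPF (background 0.00897% of 11153) and 0 of 10 in the assay-by-genotype term, called TE here (background 0% of 8044). At an unadjusted p under 0.05 the count was again 0 of 10 in each, against 2.54%, 5.96% and 3.73% of all genes. With DESeq2 it was also 0 of 10 at an adjusted p under 0.05 in each.

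The estimates leaned different ways by assay. Log2 fold changes, KO against WT, were above 0 for 3 of 10 members in RNA (background 49.1%), with a median of -0.06 beside -0.01 over all genes. In RPF, 9 of 10 were above 0 (background 50.2%), with a median of 0.30 beside 0.00, and in TE 10 of 10 (background 51.7%), with a median of 0.31 beside 0.01. As the members move together, these counts do not stand for 10 separate observations. The RPF median was -0.18 without KO library 1, the library with the highest mitochondrial share, and 0.08 without WT library 2. The RNA median was 0.09 without KO library 3 and 0.06 without WT library 1. The TE median was 0.09 without KO library 1, where mt-Atp6, mt-Co1 and mt-Nd6 lay below 0, 0.11 without WT library 2, 0.69 without WT library 3 and 0.55 without KO library 2. Nuclear subunits of complexes I and V leaned the same way in TE, with 31 of 36 and 14 of 18 genes above 0. Those of complex IV did not, with 6 of 14 above 0 (median -0.05). Under total-count scaling, which moved the median of all genes by 0.13 in RNA and by -0.16 in TE, the members' RNA median was 0.09, with 7 of 10 above 0 (background 71.5%), and their TE median 0.15, with 10 of 10 above 0 (background 33.5%). In RPF it left 9 of 10 above 0 (background 50.4%). The nuclear subunits above 0 in TE were then 14 of 36 in complex I, 3 of 14 in complex IV and 8 of 18 in complex V.

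Among single members, mt-Nd2 had the largest estimate in footprints, 0.46 (SE 0.24, edgeR unadjusted p = 0.076, adjusted p = 0.835), and 0.15 (SE 0.24) in RNA. mt-Atp6 had the lowest in RNA, -0.30 (SE 0.26, edgeR adjusted p = 0.999), and was the member below 0 in footprints, at -0.05 (SE 0.25). mt-Nd3 had the largest TE estimate, 0.75 (SE 0.55, edgeR unadjusted p = 0.187, adjusted p = 1.00), from -0.28 (SE 0.30) in RNA and 0.45 (SE 0.32) in footprints. Every estimate of a member was smaller than 2 of its standard errors. Summed over the 10 genes, log2 footprints per RNA averaged -4.19 ± 0.48 for WT and -4.00 ± 0.47 for KO (SD, n = 3 hearts each; exact two-sided permutation p = 0.7). Relative to nuclear counts it was -5.33 ± 0.57 and -5.10 ± 0.42 (SD, n = 3 hearts each; exact two-sided permutation p = 0.6).

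**Figure D4:**
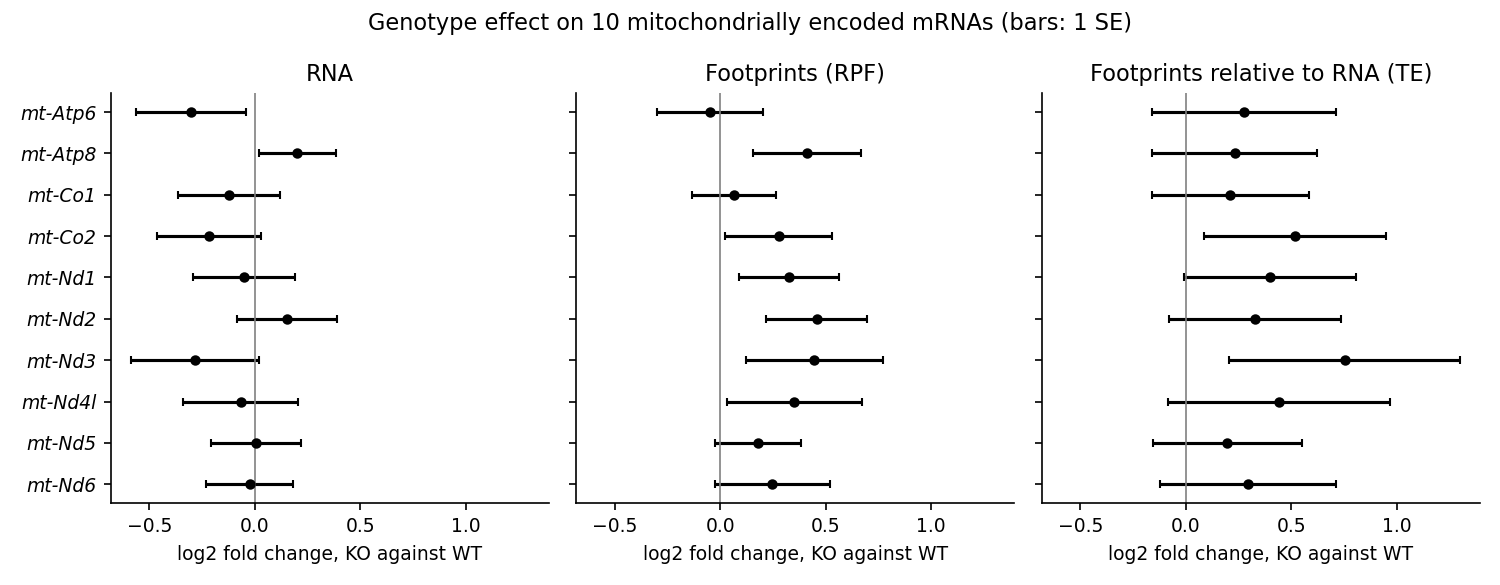
Log2 fold change, KO against WT, of the 10 mRNAs in RNA, footprints and footprints relative to RNA (TE), from edgeR, with bars of 1 SE. RNA estimates run from -0.30 (mt-Atp6) to 0.20 (mt-Atp8), footprint estimates from -0.05 (mt-Atp6) to 0.46 (mt-Nd2), and all 10 TE estimates lie above 0.

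The make-up of the mitochondrial counts was compared apart from their total, as each gene's share of the counts of the 10. The make-up differed far more between assays than between libraries. Going from mean RNA to mean footprint make-up, 38.5 percentage points changed gene, whereas 2 libraries of 1 assay differed by between 1.34 and 7.0 points in RNA and between 2.81 and 8.70 in footprints. Shares were larger in footprints for mt-Co1, mt-Nd5, mt-Nd2, mt-Nd4l and mt-Atp8 and smaller for the other 5. In WT, for example, mt-Co1 made up 24.3% ± 0.73 of mitochondrial RNA counts and 42.5% ± 2.0 of mitochondrial footprints, and mt-Co2 26.3% ± 0.80 and 13.1% ± 1.1 (SD, n = 3).

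By genotype, 5 of 20 gene and assay pairs did not overlap, 3 of 10 in RNA and 2 of 10 in RPF. Over all genes tested, 7.33% in RNA and 12% in RPF did not overlap in CPM. mt-Atp6 took 23.7%, 24.0% and 24.0% of mitochondrial RNA counts in WT libraries 1, 2 and 3 and 21.1%, 23.3% and 20.5% in KO, and 7.38%, 8.23% and 8.87% of mitochondrial footprints in WT and 7.26%, 6.84% and 6.63% in KO. mt-Nd1 took 10.7%, 10.6% and 10.8% of RNA counts in WT and 12.01%, 11.4% and 11.3% in KO, and 5.56%, 5.01% and 5.38% of footprints in WT and 5.91%, 5.95% and 5.85% in KO. mt-Atp6 was thus lower, and mt-Nd1 higher, in each KO library than in each WT library of the same assay. The fifth pair was mt-Nd2 in RNA, with 3.25%, 2.76% and 3.15% in WT and 4.35%, 3.34% and 3.80% in KO. Each of the 5 had an exact two-sided permutation p of 0.1, the smallest that 3 against 3 can give, and 0.4 after Benjamini-Hochberg adjustment over 20, so none passed. The 20 are not independent, since shares add up to 100% and the assays may share hearts.

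Grouped by complex, the 6 complex I mRNAs took 25.7%, 24.6% and 25.6% of mitochondrial RNA counts in WT and 28.5%, 26.6% and 26.6% in KO. Of mitochondrial footprints they took 34.3%, 33.0% and 33.0% in WT and 37.5%, 36.3% and 34.4% in KO. KO libraries were above WT libraries in both assays, with means of 25.3% ± 0.63 against 27.2% ± 1.1 in RNA and 33.4% ± 0.76 against 36.1% ± 1.5 in footprints (SD, n = 3; exact two-sided permutation p = 0.1 and adjusted p = 0.2 over 6 tests, each). Complex V was lower in KO in RNA, 24.0% ± 0.20 against 21.8% ± 1.4 (SD, n = 3; exact two-sided permutation p = 0.1, adjusted p = 0.2), and overlapped in footprints, 10.9% ± 1.1 against 10.5% ± 0.54 (SD, n = 3; exact p = 0.6, adjusted p = 0.72). Complex IV overlapped in both, 50.7% ± 0.53 against 50.9% ± 1.4 in RNA (SD, n = 3; exact p = 1) and 55.6% ± 0.93 against 53.5% ± 1.6 in footprints (SD, n = 3; exact p = 0.2, adjusted p = 0.3). Of the 6 comparisons, 3 did not overlap and none passed after adjustment. Over all genes tested, 7.33% in RNA and 12% in RPF did not overlap in CPM. The 6 comparisons are not independent, since the shares of the 3 complexes are parts of one total in each library. The higher complex I share and the lower complex V share in KO RNA are therefore not separate results.

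**Figure D5:**
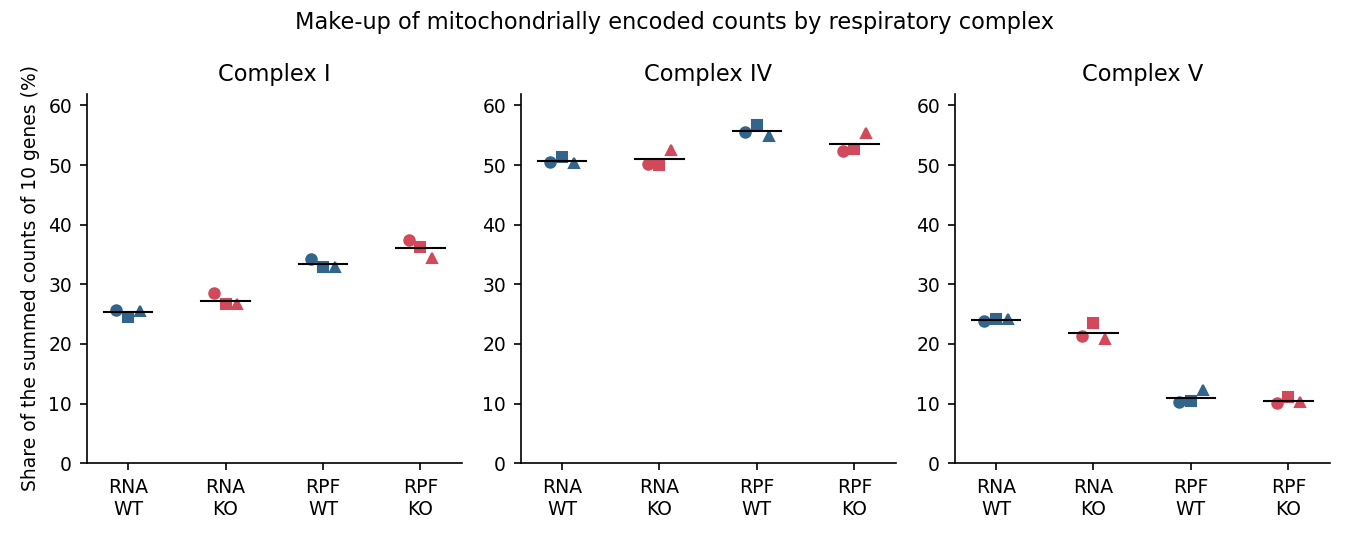
Share of the summed counts of the 10 mRNAs taken by the 6 complex I, 2 complex IV and 2 complex V mRNAs, in percent, with 1 point per library (blue WT, red KO; circle, square and triangle for libraries 1, 2 and 3) and bars for group means. Complex I means are 25.3% and 27.2% in WT and KO RNA and 33.4% and 36.1% in WT and KO footprints.

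Among the 8 cell type marker lists, the 5 macrophage markers were the ones whose summed levels did not overlap between genotypes, as the complex I share did not. That is 1 of 8 lists in each assay, beside 7.33% of all genes in RNA and 12% in RPF. They ran from 91.8 to 93.1 CPM in WT RNA and from 78.2 to 83.9 in KO RNA, and from 380 to 428 in WT footprints and from 362 to 375 in KO footprints. On TMM-scaled sizes, the summed RNA level of 21 genes of mitochondrial RNA processing and stability also did not overlap, beside 7.33% of all genes. It ran from 678 to 730 CPM in WT and from 608 to 662 in KO, and it overlapped in footprints. All other lists of nuclear genes for mitochondrial expression and for complexes I, IV and V overlapped in both assays. The part of the macrophage markers and of this list in the make-up of mitochondrial counts was not tested.

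The nuclear genes that make, process and translate these mRNAs gave 0 calls at an adjusted p of 0.05 (edgeR) in all 3 comparisons. In RNA (background 49.1% above 0), 5 of 13 tested genes of transcription and nucleoid upkeep were above 0 (median -0.06), 6 of 19 of RNA processing and stability (median -0.14), and 7 of 17 translation factors (median -0.02), with an unadjusted p under 0.05 for 0 of them. Under total-count scaling the RNA counts were 11 of 13, 9 of 19 and 14 of 17 (background 71.5%). In footprints (background 50.2%) the counts above 0 were 8 of 13, 11 of 21 and 7 of 17, with medians of 0.11, 0.03 and -0.02, and an unadjusted p under 0.05 for 1 gene of each list. Polrmt, the mitochondrial RNA polymerase, had -0.06 (SE 0.20) in RNA and -0.32 (SE 0.18) in footprints. Tfam, which packages mitochondrial DNA and activates its promoters, had -0.12 (SE 0.21) and -0.09 (SE 0.21). Tfb2m, a transcription initiation factor, had -0.13 (SE 0.56) and 0.26 (SE 0.21). Twnk, the replicative helicase, had 0.05 (SE 0.31) in RNA and 0.56 (SE 0.24, edgeR unadjusted p = 0.036, adjusted p = 0.834) in footprints.

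Of the factors that keep and read mitochondrial mRNAs, Lrpprc and its partner Slirp, which bind and stabilise them, had 0.10 (SE 0.21) and -0.21 (SE 0.19) in RNA and 0.09 (SE 0.13) and -0.01 (SE 0.17) in footprints. Mtpap, the mitochondrial poly(A) polymerase, had -0.15 (SE 0.20) in RNA and 0.20 (SE 0.21) in footprints. The initiation factors Mtif2 and Mtif3 had -0.02 (SE 0.19) and 0.03 (SE 0.23) in RNA and 0.19 (SE 0.19) and 0.41 (SE 0.29) in footprints. The elongation factors Tufm, Tsfm and Gfm1 had -0.07 (SE 0.13), -0.24 (SE 0.15) and -0.02 (SE 0.12) in footprints. Release factor Mtrf1l had 0.65 (SE 0.32), recycling factor Mrrf 0.09 (SE 0.18), and Taco1, a translational activator of mt-Co1, -0.19 (SE 0.16) in footprints.

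Nuclear subunits of the 3 complexes likewise gave 0 calls. Log2 fold changes were above 0 in RNA for 4 of 36 complex I genes (median -0.12), 4 of 14 complex IV genes (median -0.06) and 3 of 18 complex V genes (median -0.09), against 49.1% of all genes. Total-count scaling turned these to 21 of 36, 12 of 14 and 14 of 18 above 0, with medians of 0.016, 0.09 and 0.06, against 71.5% of all genes. In footprints the numbers above 0 were 15 of 36, 4 of 14 and 9 of 18 (background 50.2%), with medians of -0.01, -0.14 and 0.01. Ndufs1, a core complex I subunit, had 0.09 (SE 0.21) in RNA and 0.23 (SE 0.14) in footprints. Cox4i1 and Cox5a of complex IV had -0.13 (SE 0.19) and 0.01 (SE 0.17) in RNA and -0.11 (SE 0.11) and 0.12 (SE 0.11) in footprints. Atp5a1 and Atp5b, the catalytic-head subunits of complex V, had -0.12 (SE 0.18) and -0.13 (SE 0.17) in RNA and -0.05 (SE 0.09) and 0.11 (SE 0.09) in footprints.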

How the data were processed

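Each library has 1 deposited table of counts, not normalized, which the authors made per transcript. The submitters' processing notes name cutadapt 1.18 and Bowtie2 2.4.2; the build, region counted, strand use and treatment of multi-matching reads are not given in the sources used here. Of 21669 names, 21425 (98.9%) matched GENCODE M21 (GRCm38), which gave coordinates, lengths and sequences. Tests used edgeR 4.0.16 in R 4.3.3 on all genes passing filterByExpr (minimum count 10), with TMM scaling, quasi-likelihood F tests and Benjamini-Hochberg adjustment (threshold 0.05). RNA and RPF fits had a genotype term over 6 libraries; TE is the assay-by-genotype interaction over 12. CPM uses TMM-scaled sizes, with 0.5 added before log2, except CPM per kb and shares, which use raw library totals. Shares, ratios and exact permutation tests used Python 3.11.15 and scipy 1.17.1. Wilson intervals cover counting error only, since duplicate molecules cannot be recognised. Alternatives were DESeq2 1.42.0, other scalings and filters, a replicate block and leaving out each replicate.

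Genes named are the 10 members, Rpl3l, 15 genes of mitochondrial expression, 5 nuclear subunits, and per assay the 3 nuclear genes with the highest r to the members' mean. Members and lists were chosen with earlier results of these data known. Footprints per RNA joined the assays by genotype and number. The RNA and RPF tests used no replicate block, since WT and KO libraries of equal number come from different animals. The TE fit had none either, with a block as an alternative. Correlations of deviations for same-numbered libraries ran from -0.17 to 0.37 between WT and KO RNA and 0.01 to 0.03 between WT and KO RPF. Between assays they ran from 0.07 to 0.16. Libraries of unequal number were not compared, so these values cannot decide whether numbers mark pairs.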

Additional observations from a re-analysis of the deposited data

How the results depend on the processing

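The 10 mRNAs had 400 values under alternatives, of which 363 kept their direction and side of the threshold and 36 reversed. The exception past the threshold was mt-Nd2 in RPF without a filter on low counts, 0.46 (edgeR adjusted p = 0.031; 0.655 to 1.00 over its other alternatives), which makes 1 member called in RPF there. Small RNA estimates reversed outside the leave-one-out fits: mt-Nd5 (-0.0016 with median-of-ratios scaling, -0.0016 with DESeq2, -0.0019 without a filter, -0.0063 with a replicate block), mt-Nd6 (0.015 with a mean of at least 50 counts) and, under total-count scaling, mt-Co1 (0.013), mt-Nd1 (0.082), mt-Nd4l (0.10) and mt-Nd6 (0.11). The causes were not tested. Leaving out 1 replicate gave these ranges where a sign reversed. In RNA they were -0.26 to 0.043 for mt-Co1, -0.20 to 0.12 for mt-Nd1, -0.012 to 0.32 for mt-Nd2, -0.38 to 0.14 for mt-Nd4l, -0.18 to 0.13 for mt-Nd5 and -0.12 to 0.10 for mt-Nd6. In RPF they were -0.48 to 0.24 for mt-Atp6, -0.27 to 0.25 for mt-Co1, -0.13 to 0.56 for mt-Co2, -0.051 to 0.54 for mt-Nd1, -0.24 to 0.74 for mt-Nd3, -0.39 to 0.65 for mt-Nd4l, -0.10 to 0.40 for mt-Nd5 and -0.25 to 0.52 for mt-Nd6. In TE they were -0.13 to 0.73 for mt-Atp6, -0.022 to 0.52 for mt-Co1 and -0.16 to 0.61 for mt-Nd6. The log2 ratio of summed mitochondrial shares, KO over WT, ran from -0.074 to 0.027 in RNA, positive without KO library 3, and from -0.20 to 0.40 in RPF, negative without KO library 1 or WT library 2. The log2 difference in summed footprints per RNA ran from -0.084 to 0.42, negative without the same 2 libraries. Gene and assay pairs without overlap numbered 5 to 9, with 8 without WT library 3, 8 without KO library 1 and 9 without KO library 2; smaller groups overlap less often by construction. The members' median then lay between -0.23 and 0.088 (RNA), -0.18 and 0.53 (RPF), or 0.087 and 0.69 (TE). Over all genes, 4 were called in RNA without a filter, against 1. In RPF 5 were called with DESeq2, 60 without a filter, 4 with the replicate block and 1 to 2 on leaving out a replicate (2 without WT library 2 or 3), against 1. In TE 1 was called with DESeq2 and 3 without a filter, against 0. The block changed no call of a member. Chosen after seeing the data, raw library totals gave a shared shift of 20.2% of within-group variation in RNA, against 67.4%, and changed the sign of 6 of 7 list medians in RNA. Counting intervals of the mitochondrial shares were narrower than the spread between libraries.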
